A study of Mus musculus with 15 samples.

Results

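Peaks of HSF1, the heat shock transcription factor, were mapped in brown adipose tissue (BAT) of mice by chromatin immunoprecipitation and sequencing (ChIP-seq). Those described here lie at 8 genes whose products fold and hydroxylate collagen. The genes are Serpinh1, P4ha1, P4ha2, P4hb, Plod1, Plod2, Plod3 and Fkbp10, and they are 8 of 21887 protein-coding genes with a position on GRCm38 (mm10). The genes were selected on HSF1 peaks in these lists, so presence, rank and fold are given as a description with no test. A peak was assigned to a gene when it overlapped the gene span or the 5000 bp on either side by at least 1 bp. By that rule 99 of 54878 peaks fell at the genes, and they merged into 17 of the 18176 regions of the series. A total of 7 genes had a peak in some library, and Fkbp10 had none.

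The study made 10 libraries, 2 in each of 5 groups. A time course in wild type (WT) mice ran over room temperature, 40 min in the cold, here called the first WT pair, and 4 h in the cold. TXNIP knockout (KO) tissue came from mice kept cold for 40 min, as did a second WT pair numbered 1.1 and 2.1. Fixation in every group used DSG (2 mM, 25 min) and then formaldehyde (0.8%, 12 min), and the same Cell Signaling antibody, catalogue number 4356, was used throughout. The sources used here do not give the age or strain of the mice, whether TXNIP was deleted in the whole body or in a single cell type, or whether paired libraries came from separate animals. The spread between libraries of a pair may therefore be technical. Nor do they say whether the second WT pair came from new animals or which WT pair was prepared with the KO. At all 7 sites called in both KO and both first WT pair libraries, both KO folds exceeded both first WT pair folds. The highest fold of the KO lists, 1148 and 1109, likewise exceeded that of the first WT lists, 400 and 328. The share of all regions with this order was not computed, so nothing is read from the 7. Each statement below that sets KO beside the second WT pair holds for that pair alone. Peak lists hold no expression values, so the tissue label could not be set against marker genes.

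Collagen chains are modified in the endoplasmic reticulum before they wind into a triple helix. Prolyl 4-hydroxylase, made of P4ha and P4hb subunits, hydroxylates prolines, which makes the helix stable at body temperature. The lysyl hydroxylases of the Plod family prepare lysines for glycosylation and for cross-linking outside the cell. Serpinh1 (HSP47) is a collagen-specific chaperone that binds the folded helix, and it is a classic heat-inducible gene. Fkbp10 (FKBP65) is a prolyl isomerase that assists folding and collagen cross-linking. HSF1 binds heat shock elements, which are repeats of short inverted units, and it is best known for switching on chaperone genes under heat and other proteotoxic stress. BAT makes heat in the cold, and collagen forms much of the matrix around its adipocytes and vessels.

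The lists differed in length by a wide margin. They held 919 and 1269 peaks at room temperature, 2287 and 1670 for the first WT pair, and 123 and 351 at 4 h. The TXNIP KO lists held 10399 and 10633 peaks, against 12644 and 14583 in the second WT pair. The highest fold of a list also varied, from 53.6 in 4 h replicate 1 to 1296 in replicate 1.1 of the second WT pair. The fold is the enrichment of the peak over background that the authors' peak caller wrote for that library, and the depth behind it is unknown. Folds of different libraries are therefore set side by side, and relations between sites are given as ratios within a library or as ranks within a list. For folds taken alone, the share of all regions with a given order between groups was not computed. The share of all protein-coding genes that were bound, given below, was larger in groups with longer lists. The part of list length in the counts below was not tested.

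Sequences are shown for the 3 genes whose strongest peak lay within 100 bp of the start and that have an entry in the RefSeq promoter table for GRCm38.p6, together with the Hspe1 promoter as a strong HSF1 locus. Capitals mark matches to TTCNNGAA or GAANNTTC, the orders in which a pair of inverted heat shock units can stand. Each of these letter strings reads the same on both strands, and matches of the pair can overlap. The P4ha2 sequence covers the 250 bases before the start on the plus strand (chr11:54100674-54100923) and the Serpinh1 sequence the 250 bases before the start on the minus strand (chr7:99353240-99353489). The Plod1 sequence is the last 30 bases of its window on the minus strand (chr4:147936727-147936756), past the start, and the Hspe1 sequence is a stretch of 40 bases on the plus strand (chr1:55088048-55088087).
Serpinh1: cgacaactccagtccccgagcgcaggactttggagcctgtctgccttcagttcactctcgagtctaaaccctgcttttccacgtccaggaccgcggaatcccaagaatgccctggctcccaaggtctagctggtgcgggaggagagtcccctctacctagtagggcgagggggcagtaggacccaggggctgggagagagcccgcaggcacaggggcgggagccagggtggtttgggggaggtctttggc
P4ha2: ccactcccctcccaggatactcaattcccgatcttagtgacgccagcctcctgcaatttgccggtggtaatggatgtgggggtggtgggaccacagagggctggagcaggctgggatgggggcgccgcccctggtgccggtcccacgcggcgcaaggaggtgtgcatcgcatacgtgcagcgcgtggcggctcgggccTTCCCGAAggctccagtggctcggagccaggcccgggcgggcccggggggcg
Plod1: cagcgcccgccggccccgtcgcGAAGTTTC
Hspe1: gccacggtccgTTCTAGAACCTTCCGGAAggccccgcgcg

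Of the 6 genes with a promoter window, P4ha2 and Plod1 held such a pair and Serpinh1, P4ha1, P4hb and Plod3 did not. A window runs from 250 bases before the start to 50 bases after it. The P4ha2 match began 52 bases before the start, and the summits of its 8 peaks lay 4 to 100 bp from it. The Plod1 match began 43 bases past the start, and its 8 summits lay 0 to 39 bp from it. Either order was present in 15.1% of 32851 windows in the table, TTCNNGAA in 8.52% and GAANNTTC in 7.86%. A run of 3 inverted units, as in Hspe1, was present in 0.603% of windows and in none of the 6 genes' windows. The absence of a match says only that these letters are not in the window, and for P4ha1 all 10 summits at the start lay past its end, as did several at Serpinh1. All Plod3 summits also lay past the end of the window, and all P4hb summits lay before it.

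In the time course, 5 of the 8 genes had a peak in both libraries at room temperature, against 2.95% of all protein-coding genes. The same 5 genes, Serpinh1, P4ha1, P4ha2, Plod1 and Plod2, had a peak in both libraries of the first WT pair, against 4.97% of all genes. At 4 h, 2 genes had a peak in both libraries, Serpinh1 and P4ha1, against 0.466% of all genes. None of the 3 genes unbound at room temperature was bound in both first WT pair libraries, where 1.15% of such genes were. Of the 5 genes bound in both room temperature libraries, P4ha2 and Plod1 had no peak in either 4 h library, and 63.4% of all genes bound at room temperature had none. Plod2 was called in 4 h replicate 2 and not in replicate 1. The comparisons with 40 min and with 4 h share the room temperature libraries.

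After 40 min of cold, 7 of the 8 genes had a peak in both TXNIP KO libraries, against 21% of all genes. The same 7 genes had a peak in both libraries of the second WT pair, against 26.6% of all genes. Only Fkbp10 lacked a peak in both second WT libraries, and it had none in KO tissue either. Of all genes that the second pair lacked, 0.477% were bound in both KO libraries. None of the 7 was absent from both KO libraries, where 10.6% of the genes bound in both second WT libraries were. These shares are the background of the same lists that chose the genes, and nothing is read from them.

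**Figure D1:**
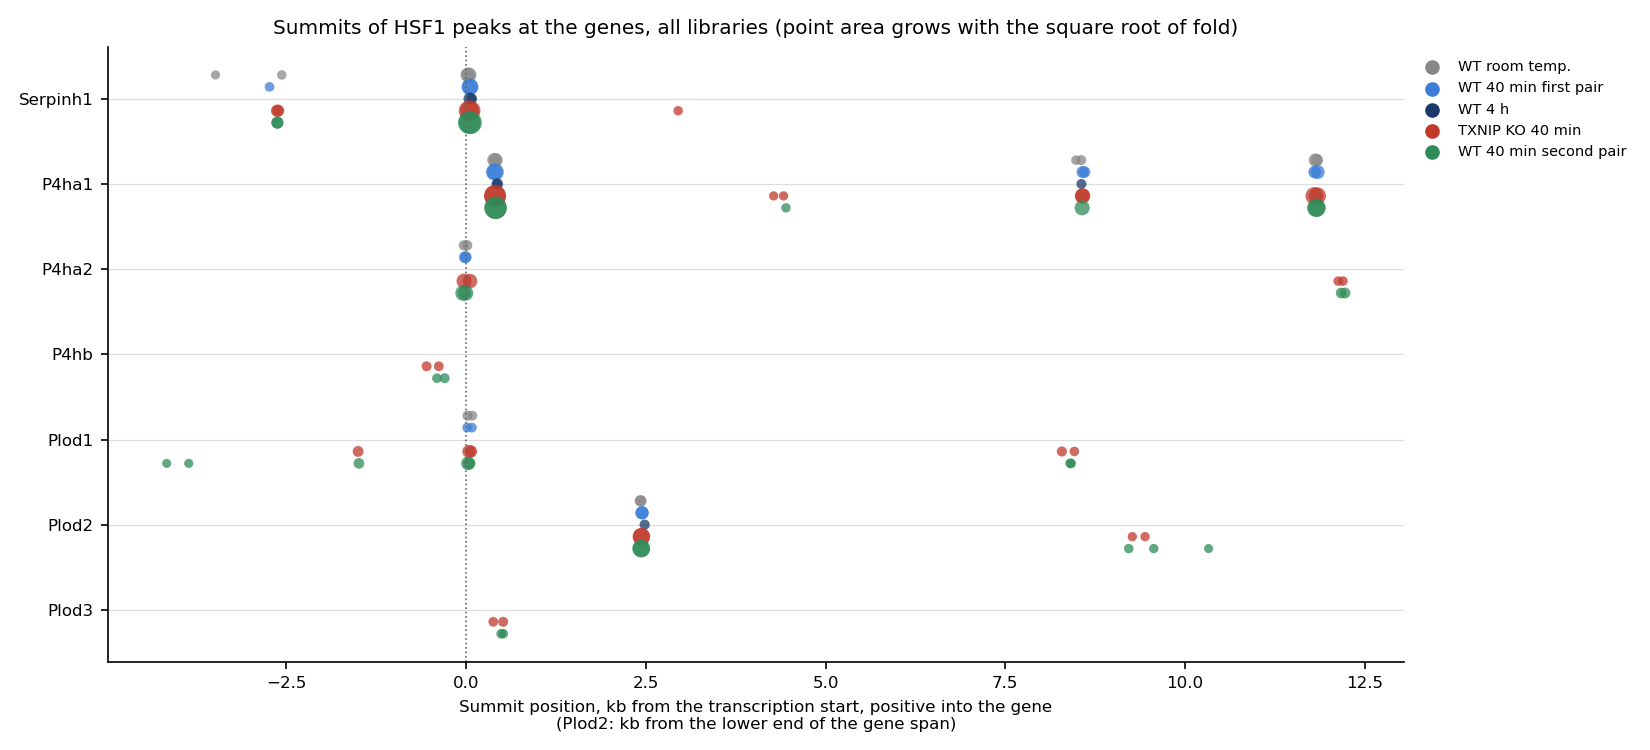
Position of each HSF1 summit along the x axis in kb from the transcription start (for Plod2, from the lower end of its span), with 1 row per gene and 1 colour per group. Summits of Serpinh1, P4ha1 and Plod2 stack at a fixed position in nearly every group, while those of P4hb and Plod3 appear in the TXNIP KO and second WT libraries alone, and 2 peaks over 15 kb from the start are not drawn.

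Serpinh1, the collagen chaperone, carried a peak at its start in all 10 libraries. The summits lay 25 to 79 bp past the start on chromosome 7, within 54 bp of each other (chr7:99353160-99353214). The fold at this site was 51.7 and 48.4 at room temperature, 81.9 and 80.4 for the first WT pair, and 9.19 and 22.1 at 4 h. Both 40 min libraries stood above both room temperature libraries, and both 4 h libraries stood below them. In the TXNIP KO libraries the fold was 209.5 and 199, against 359.6 and 327 in the second WT pair. Both KO libraries lay below both libraries of the second WT pair and above both of the first.

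The Serpinh1 start peak was among the 38 strongest of every list. Its rank by −log10 p was 24 and 25 at room temperature, 30 and 20 for the first WT pair, and 38 and 22 at 4 h. It ranked 22 and 25 in the TXNIP KO lists, against 16 and 24 in the second WT pair, and by fold 34 and 36 in KO, against 16 and 21 in the second WT pair. The pairs overlapped by −log10 p and not by fold. As a share of the highest fold in the same list, which belonged to the peak shared by Hspd1 and Hspe1, it reached 26.6% and 25.1% at room temperature, 20.5% and 24.5% for the first WT pair and 17.1% and 18.9% at 4 h. That share was 18.3% and 17.9% in KO tissue, against 27.8% and 27.0% in the second WT pair. Hspd1 and Hspe1 encode the paired mitochondrial chaperones HSP60 and HSP10, and their shared peak ranked 1 in 8 lists and 2 in both 4 h lists.

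A weaker Serpinh1 site lay 2563 to 2734 bp before the start and was called in 6 libraries. Its fold was 4.44 in room temperature replicate 2 and 5.29 in first WT pair replicate 2. It was 18.7 and 19.0 in the TXNIP KO libraries, against 19.4 and 16.4 in the second WT pair, and the genotypes overlapped. Further summits were called in a single library each, with a fold of 4.35 at 2950 bp past the start in KO replicate 2 and of 3.71 at 3485 bp before it in room temperature replicate 2. Broader peaks of 3 other libraries covered the first position and of 4 others the second, with their summits elsewhere.

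P4ha1, an alpha subunit that carries the catalytic site of prolyl 4-hydroxylase, had the most peaks of the 8 genes, 29 over the 10 libraries. Its strongest site lay 391 to 435 bp past the start (chr10:59323687-59323731) and was called in every library. The fold there was 36.0 and 44.2 at room temperature, 90.6 and 81.3 for the first WT pair, and 5.45 and 14.2 at 4 h. As at Serpinh1, the 40 min libraries stood highest and the 4 h libraries lowest, with no overlap. In TXNIP KO tissue the fold was 299.8 and 265.5, against 319.9 and 315 in the second WT pair. Both KO libraries again lay below both libraries of the second WT pair, by a smaller margin than at Serpinh1, and above both of the first. The highest fold of a list was also lower in KO, at 1148 and 1109, against 1296 and 1210 in the second WT pair. The share of all regions with these orders by fold was not computed.

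**Figure D2:**
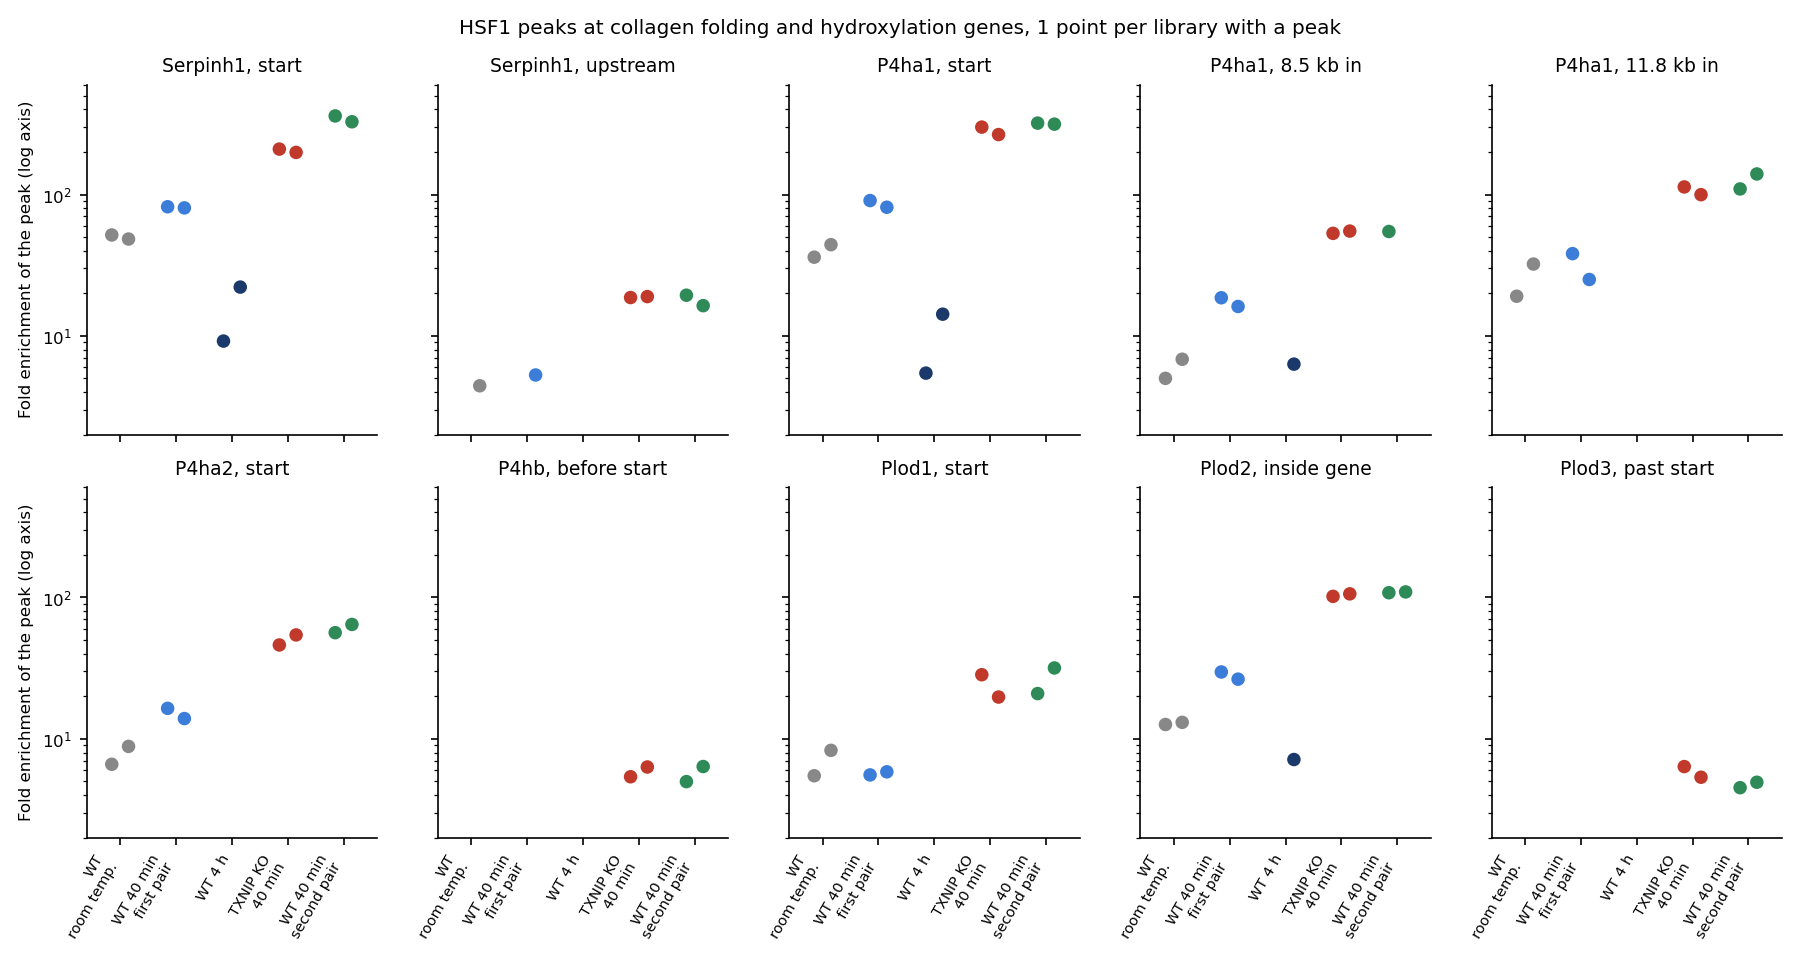
Fold enrichment of the peak on a log axis, by group, at 10 sites of 7 genes, with 1 point for each library that called the site. The Serpinh1 start runs from 9.19 in 4 h replicate 1 to 359.6 in replicate 1.1 of the second WT pair, while P4hb and Plod3 lie below 7 in every library where they appear.

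Beyond its start, P4ha1 held strong sites 8.5 kb and 11.8 kb into the gene. The 8.5 kb site, at 8484 to 8601 bp, had a fold of 5.01 and 6.83 in the room temperature libraries, 18.6 and 16.1 in the first WT pair, and 6.31 in 4 h replicate 2. Its fold was 53.1 and 55.1 in the TXNIP KO libraries, against 54.8 in replicate 1.1 of the second WT pair. In replicate 2.1 a single peak of 5376 bp spanned both inner sites with its summit at 11.8 kb, so no separate value exists. The 11.8 kb site, at 11798 to 11845 bp, had a fold of 19.1 and 32.2 in the room temperature libraries and of 38.2 and 25.0 in the first WT pair. It was not called at 4 h. Its fold was 113 and 99.7 in KO tissue, against 109 and 140 in the second WT pair. Room temperature and 40 min overlapped at the 11.8 kb site and did not overlap at the 8.5 kb site.

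The inner P4ha1 sites thus stood in different proportion at room temperature and after 40 min of cold. The fold at 11.8 kb was 3.81 and 4.71 times that at 8.5 kb at room temperature, and 2.05 and 1.55 times in the first WT pair. The ratio was 2.13 and 1.81 in the TXNIP KO libraries, against 2.00 in replicate 1.1 of the second WT pair. Every library taken after 40 min of cold that had both sites lay below both room temperature libraries. The room temperature ratios rest on weak 8.5 kb peaks, which stood at 82.4% and 49.1% of the way down their lists. The share of other pairs of sites with such a shift was not computed. In 4 h replicate 2 the 8.5 kb site alone was called, so no ratio exists there. Among 756 regions called in all room temperature and first WT pair libraries, the 8.5 kb site ranked 689 and 557 at room temperature and 249 and 266 in the first WT pair. A place higher in both 40 min than in both room temperature libraries was taken by 24.1% of the 756 regions. The 11.8 kb site ranked 87 and 52 at room temperature and 75 and 111 in the first WT pair, with overlap. A weak P4ha1 site 4.4 kb in was called in both KO libraries and in replicate 2.1 of the second WT pair, with a fold of 3.94, 3.91 and 4.29.

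P4ha1 and Serpinh1 are the 2 genes bound throughout, and their order by fold differed between groups. The fold at the Serpinh1 start was 1.44 and 1.096 times that at the P4ha1 start at room temperature, 0.90 and 0.99 times for the first WT pair, and 1.69 and 1.55 times at 4 h. Serpinh1 thus led at room temperature and at 4 h, and P4ha1 led in the first WT pair, where 0.99 is close to a tie. The ratio was 0.70 and 0.75 in TXNIP KO libraries, against 1.12 and 1.04 in the second WT pair. The WT pairs at 40 min thus stood in opposite order, with 0.99 and 1.04 both close to a tie. What lay behind this order was not tested. By fold KO lay below both WT 40 min pairs. A fold relative to that at the P4ha1 start was lower in both KO than in both second WT libraries at 22.5% of 7130 regions, and higher in both at 22.4%. The ratio of −log10 p between the sites was 0.93 and 0.95 in KO, against 1.15 and 1.05 in the second WT pair. It was 0.88 and 0.99 in the first WT pair, which KO overlapped by this measure.

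**Figure D3:**
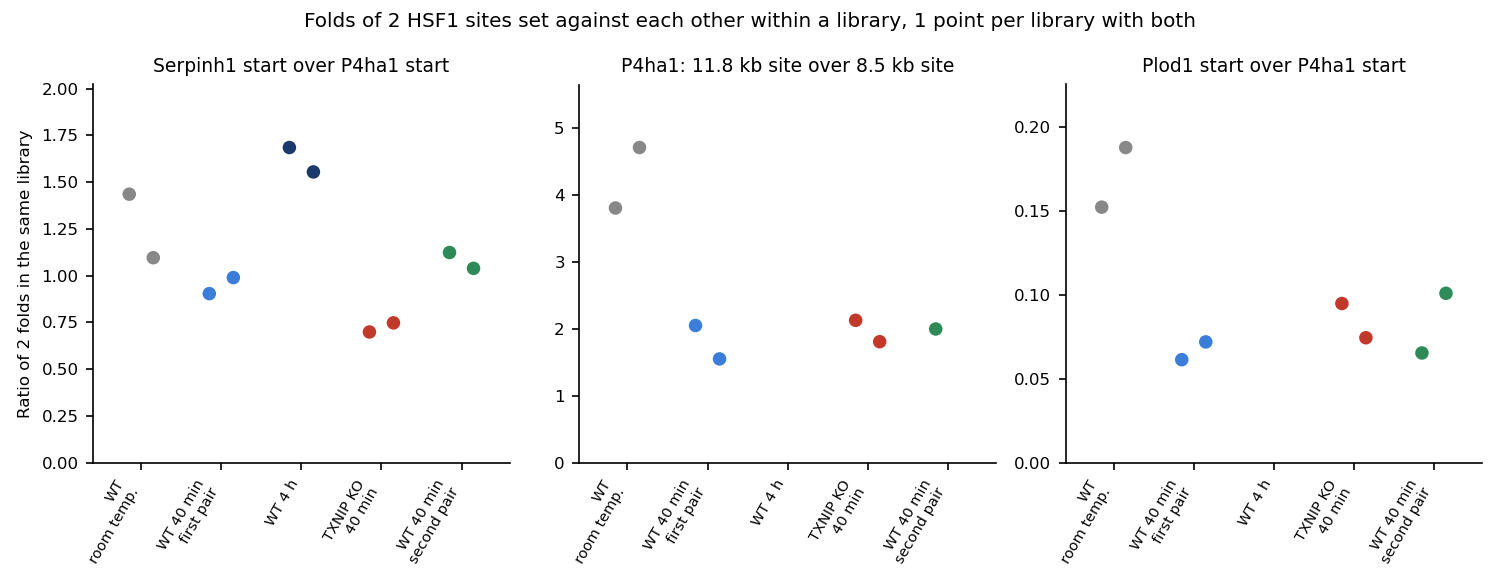
Ratio of the folds of a pair of HSF1 sites within the same library, by group, with 1 point for each library that called both. Serpinh1 over P4ha1 is lowest in TXNIP KO tissue at 0.70 and 0.75, and the ratio of the inner P4ha1 sites and that of Plod1 over P4ha1 are highest at room temperature.

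At 4 h the gap between Serpinh1 and P4ha1 was also a gap in rank. Among the 95 regions called in all 10 libraries, Serpinh1 ranked 23 and 23 at room temperature, 27 and 20 for the first WT pair, and 33 and 22 at 4 h. P4ha1 ranked 33 and 24 at room temperature, 20 and 19 for the first WT pair, and 83 and 45 at 4 h. P4ha1 was placed lower in both 4 h than in both room temperature libraries, as were 40% of the 95 regions, while Serpinh1 overlapped. Over the 7131 regions called in all KO and second WT libraries, P4ha1 ranked 17 and 21 in KO tissue, against 23 and 27 in the second WT pair. A place higher in both KO libraries was taken by 22.2% of those regions. By fold over the whole lists P4ha1 ranked 17 and 20 in KO, against 20 and 25 in the second WT pair, which left the pairs touching.

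P4ha2, the other widely expressed alpha subunit of prolyl 4-hydroxylase, was called at its start in 8 libraries, 41 bp before to 55 bp past it (chr11:54100883-54100979). The fold was 6.61 and 8.84 at room temperature and 16.4 and 13.9 in the first WT pair, and no peak was called at 4 h. In TXNIP KO libraries it was 46.1 and 54.3, against 56.4 and 64.5 in the second WT pair. The 40 min pair stood above room temperature, and KO stood below the second WT pair. The ratio of the P4ha2 start to the P4ha1 start was 0.15 and 0.20 in KO, against 0.18 and 0.20 in the second WT pair, and here the genotypes overlapped. At room temperature that ratio was 0.18 and 0.20, and in the first WT pair 0.18 and 0.17, so the folds of P4ha2 and P4ha1 kept close to the same proportion.

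Inside P4ha2, 12.2 kb past the start, a second site was called in the KO and second WT libraries alone. Its fold was 4.87 and 5.14 in TXNIP KO tissue, against 10.6 and 9.26 in the second WT pair. The genotypes did not overlap. Its rank among the 7131 shared regions was 5729 and 5053 in KO, against 2885 and 3501 in the second WT pair. A place lower in both KO libraries was taken by 19.5% of those regions.

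P4hb, the beta subunit of prolyl 4-hydroxylase, is protein disulfide isomerase and serves many secreted proteins besides collagen. It had a single weak site, 298 to 549 bp before the start (chr11:120573551-120573802). The fold was 5.39 and 6.32 in TXNIP KO libraries, against 4.98 and 6.37 in the second WT pair, with full overlap. The peak stood at 57.2% and 43.1% of the way down the KO lists, against 48.6% and 34.4% in the second WT lists. It was called neither in the time course nor within the top 10% of any list. The subunits of the enzyme thus differed, with P4ha1 near the top of the long lists and P4hb in the middle of them.

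Plod2, the lysyl hydroxylase that acts on the telopeptides of fibrillar collagen, was called inside the gene in 9 libraries. The summits lay 2423 to 2484 bp from the lower end of its span (chr9:92542059-92542120), where the long noncoding RNA gene B430319G15Rik overlaps it. The tables used here give no strand for Plod2, so its start could not be placed. The fold was 12.6 and 13.1 at room temperature, 29.7 and 26.4 for the first WT pair, and 7.14 in 4 h replicate 2. In TXNIP KO tissue it was 102 and 106, against 108 and 109 in the second WT pair. The first WT pair stood above room temperature, and KO lay just below the second WT pair in fold.

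Plod2 ranked 155 and 187 at room temperature, 107 and 105 for the first WT pair, and 221 in 4 h replicate 2. It ranked 104 and 89 in TXNIP KO lists, against 79 and 79 in the second WT pair. By fold the order was turned round, at 97 and 81 in KO, against 118 and 122 in the second WT pair. Its fold was 0.35 and 0.30 times that at the P4ha1 start at room temperature, 0.33 and 0.33 times for the first WT pair, and 0.50 times in 4 h replicate 2. The same ratio was 0.34 and 0.40 in KO tissue, against 0.34 and 0.35 in the second WT pair. Apart from 4 h, the fold of Plod2 thus kept within a narrow range of that at P4ha1. The ratio of −log10 p ranged more widely, at 0.27 and 0.32 in KO, against 0.36 and 0.38 in the second WT pair, 0.23 and 0.23 in the first WT pair, and 0.21 and 0.17 at room temperature. Of its 3 other sites, that at 9.4 kb was called in all KO and second WT libraries with a fold of 4.15 to 4.61. The others were called only in replicate 2.1 of the second WT pair, with a fold of 3.43 and 3.69.

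Plod1, which hydroxylates lysines of the collagen helix, was called 16 to 88 bp past its start in 8 libraries (chr4:147936688-147936760). The fold was 5.48 and 8.29 at room temperature and 5.56 and 5.84 in the first WT pair, with overlap, and no peak was called at 4 h. It was 28.4 and 19.8 in TXNIP KO tissue, against 20.9 and 31.7 in the second WT pair, again with overlap. By fold, the start or leading sites of Serpinh1, P4ha1, P4ha2 and Plod2 stood higher in the first WT pair than at room temperature. That of Plod1 did not. The highest fold of a list also stood higher, at 400 and 328 against 194 and 193. The share of all regions with a higher fold was not computed. Among the 756 regions called in all these libraries, P4ha1, P4ha2 and Plod2 ranked higher, as did 24.1% of regions. Serpinh1 overlapped, at 24 and 25 at room temperature and 30 and 20 in the first WT pair.

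Set against P4ha1 in the same library, the Plod1 start stood at 0.15 and 0.19 times at room temperature and at 0.061 and 0.072 times in the first WT pair. The ratio was 0.095 and 0.074 in TXNIP KO tissue, against 0.065 and 0.10 in the second WT pair. Room temperature was highest and did not overlap any other group with both sites. The Plod1 folds themselves overlapped between room temperature and the first WT pair. The P4ha1 fold below them was 36.0 and 44.2 at room temperature and 90.6 and 81.3 in the first WT pair. The Plod1 peak was weak at room temperature, at 74.8% and 35.9% of the way down its lists. The share of all regions with this order of ratios was not computed. Among the 756 regions of the time course, Plod1 ranked 641 and 436 at room temperature and 736 and 710 in the first WT pair. A place lower in both 40 min libraries was taken by 25.7% of those regions.

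Plod1 also had 4 weaker sites, called in KO or second WT libraries. That at 8.4 kb was called in all 4, with a fold of 6.85 and 4.74 in TXNIP KO tissue, against 4.98 and 5.32 in the second WT pair. That at 1.5 kb before the start had a fold of 10.5 in KO replicate 2, against 9.56 in replicate 1.1 of the second WT pair. No summit was placed there in the other KO and second WT libraries, whose peak at the start extended over it. A site 4.0 kb before the start, inside the neighbouring gene 2510039O18Rik, had a fold of 3.58 and 3.26 in the second WT pair. A peak beyond the far end of Plod1, with a fold of 3.43 in replicate 2.1 of the second WT pair, lay near the limit of the 5000 bp window. Just outside the windows, the nearest peak was 6638 bp from Serpinh1 with a fold of 5.19 in KO replicate 1, and 8570 bp from P4ha2 with a fold of 1.54 in 4 h replicate 1.

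Plod3, which hydroxylates lysines and also adds sugars to hydroxylysine, had 1 site, 379 to 520 bp past the start (chr5:136987398-136987539). The position lies inside Znhit1 as well, whose span overlaps that of Plod3. The fold was 6.37 and 5.35 in TXNIP KO tissue, against 4.51 and 4.93 in the second WT pair. KO stood higher without overlap, the reverse of the order at the Serpinh1, P4ha1 and P4ha2 starts. By rank the peak stood at 43.7% and 51.1% of the KO lists, against 56.4% and 42.0% of the second WT lists, and there the genotypes overlapped. Whole lists also split this way. Their median fold was 5.99 and 5.53 in KO, against 5.43 and 5.15 in the second WT pair. Their highest fold was 1148 and 1109 in KO, against 1296 and 1210. The share of all regions with the order seen at Plod3 was not computed.

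Fkbp10, the isomerase, had no peak within its window in any library. The nearest peak was 20146 and 24079 bp away in TXNIP KO tissue, against 24041 and 22820 bp in the second WT pair. In the time course the nearest was 1494930 and 539741 bp away at room temperature, 354998 and 539475 bp for the first WT pair, and 15705930 and 3881881 bp at 4 h. Depth is unknown, so a weaker signal below the authors' threshold cannot be told apart from none.

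**Figure D4:**
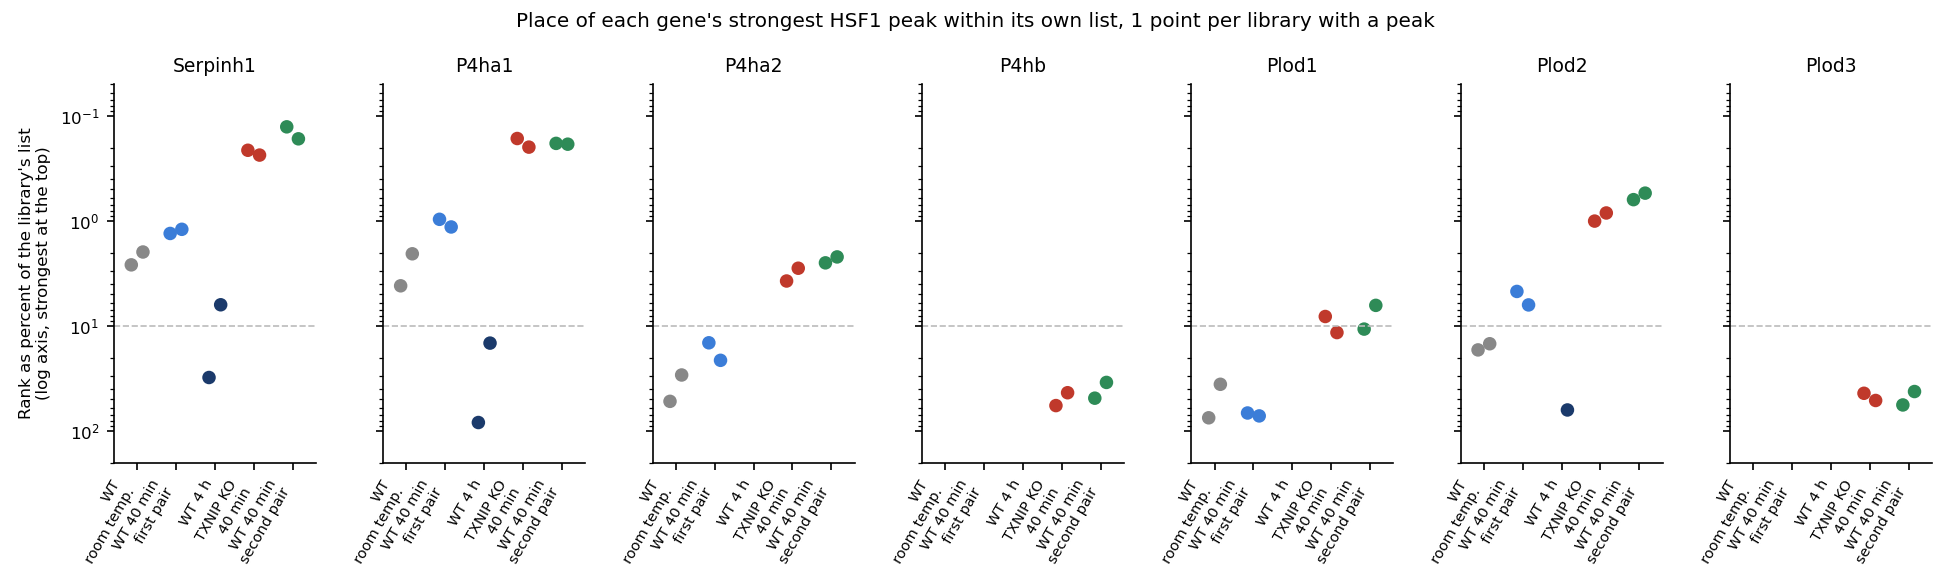
Rank of each gene's strongest peak as a percent of its own list, on a log axis with the strongest at the top, by group, with 1 point per library that called the gene; the dashed line marks 10%. Serpinh1 lies above the line in 9 of 10 libraries and P4ha1 in 8 of 10, while P4hb and Plod3 lie between 34.4% and 57.2%.

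By rank the genes formed an order from Serpinh1 and P4ha1 through Plod2 to P4ha2 and Plod1, with P4hb and Plod3 last. The strongest peak lay in the top 10% of its list in 29 of 53 pairs of a gene and a library with a peak. That number was 9 of 10 for Serpinh1, 8 of 10 for P4ha1, 6 of 9 for Plod2, 4 of 8 for P4ha2, 2 of 8 for Plod1, and 0 of 4 for both P4hb and Plod3. The counts rest on different lists. P4hb and Plod3 were called only in the long KO and second WT lists, and Serpinh1 and P4ha1 missed the top 10% only at 4 h. The same share over all bound genes was not computed. Neighbours in this order were not everywhere apart, since Serpinh1 and P4ha1 exchanged places between groups. When every list was cut to its 123 strongest peaks, the length of the shortest list, Serpinh1 and P4ha1 alone were bound in both room temperature and both 4 h libraries. Plod2 joined them in both first WT pair, both KO and both second WT libraries. The share of all protein-coding genes bound after this cut was not computed.

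Grouping summits within 500 bp of each other gave 21 sites at the 7 genes. Of these, 2 were called in all 10 libraries, the starts of Serpinh1 and P4ha1, and 5 were called in 8 or 9. A further 5 were called in 1 library, and 12 had summits in KO or second WT libraries alone. At 4 sites, 2 of them called in 1 library, a peak with its summit at another site covered the position in a further library, so these counts are of summits and not of covered ground. The KO and second WT lists were also the longest, at 10399 to 14583 peaks, against 123 to 2287 in the other lists. The share of all regions confined to them was not computed, so nothing is read from the 12. Summits spread over 44 bp at the P4ha1 start, 61 bp at Plod2 and 117 bp at the 8.5 kb site of P4ha1. At sites of low fold the spread ran from 11 bp, 1.5 kb before Plod1, through 94 bp at the 12.2 kb site of P4ha2, to 347 bp at the 9.4 kb site of Plod2.

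Other genes of collagen synthesis were counted by the same rule. Of 51 listed genes, 5 were bound at room temperature, against 2.95% of all genes, 7 in the first WT pair, against 4.97%, and 0 at 4 h, against 0.466%. In TXNIP KO tissue 17 of them were bound, against 21% of all genes, and in the second WT pair 25, against 26.6%. Among 12 genes of prolyl 3-hydroxylation, isomerization and glycosylation, none was bound in the time course, while P3h2, Colgalt1 and Colgalt2 were bound in KO tissue, and Fkbp9 and Fkbp14 besides these in the second WT pair. Folds in that list were low, from 5.17 to 6.91 at P3h2, from 4.35 to 8.76 at Colgalt2 and from 3.94 to 4.98 at Fkbp9.

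Of 16 collagen chain genes, Col4a1, Col4a2 and Col6a3 were bound in both room temperature libraries and, with Col15a1, in the first WT pair. The first 2 encode chains of basement membrane collagen, and Col6a3 encodes a chain of the microfibrils around adipocytes. The KO and second WT pairs each bound 9 chain genes, adding Col1a1, Col5a1, Col5a3, Col12a1 and Col18a1. The part of gene length in these counts, against 21% and 26.6% of all genes, was not tested. A gene can count as bound without a shared site. Col5a1 had 1 weak peak per library, with summits at chr2:27936861 and chr2:28034087 in KO and at chr2:27936825 and chr2:28034189 in the second WT pair. Col4a1 and Col4a2 are adjacent with overlapping windows, and in first WT pair replicate 2 the strongest peak counted at Col4a2 had its summit inside Col4a1. The strongest peak at Col4a1 had a fold of 9.69 and 11.8 in the room temperature libraries, 27.0 and 21.8 in the first WT pair, and 5.05 in 4 h replicate 1. It was 80.5 and 78.0 in TXNIP KO tissue, against 113 and 117 in the second WT pair. Over all libraries with a peak, the fold ran from 8.23 to 67.7 at Col4a2 and from 7.39 to 81.3 at Col6a3.

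Of 16 genes of secretion, propeptide cleavage and cross-linking, Sparc was bound in both libraries of every group but 4 h. Sparc encodes a matrix protein that binds collagen. Its strongest peak had a fold of 23.6 and 21.1 in the room temperature libraries and of 37.2 and 29.5 in the first WT pair. In TXNIP KO tissue it was 110.04 and 94.9, against 136 and 128 in the second WT pair, and in each of these libraries it lay between the P4ha1 and P4ha2 starts. Adamts2, the procollagen N-proteinase, was bound in the first WT pair, in KO tissue and in the second WT pair, with folds from 8.39 to 36.3 in these libraries. Pcolce and Loxl3 were bound in KO tissue and in the second WT pair, with folds at Loxl3 of 14.7 and 11.5 in KO, against 16.9 and 15.4 in the second WT pair. Mia2, Mia3, Sec23a and Sec24d reached both libraries of the second WT pair and of no other group. Of 7 disulfide partners of P4hb, Pdia3 was bound in both libraries of every group but 4 h, with a fold from 8.98 to 80.6 in those libraries. Pdia4, with a fold of 3.79 and 3.53, and Txndc5, with a fold of 3.19 and 3.08, were bound in both libraries of the second WT pair and of no other group.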

How the data were processed

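HSF1 ChIP-seq peaks of mouse BAT were analysed in 10 libraries. The submitters' processing notes name MACS2 2.2.7.1, BWA 0.7.17, Trim Galore 0.6.0, deepTools 3.4.3 and SAMtools, and build GRCm38.p6 (mm10). The sources used here give neither tool settings nor the input of each list. For every library the authors deposited a narrow peak list of its own, with no pooling. Each deposited list gives a fold enrichment, a linear ratio per peak. Further deposited columns hold −log10 p-values and −log10 q-values from the authors' peak caller. A deposited score was not used. The lists hold no counts, so depth is unknown and no interval was computed.

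Chromosomes 1 to 19, X and Y were kept, and duplicate peaks were counted once. Peaks overlapping a gene span with 5000 bp on each side by 1 bp or more were assigned to that gene. A gene was called bound in a group when both libraries had a peak. Ranks ran by −log10 p within a list. Regions merged overlapping peaks, and sites grouped summits within 500 bp, which was chosen after seeing the data. Starts and promoter sequence came from the RefSeq table for GRCm38.p6, which matched 6 of 8 genes. The scripts used python 3.11.15, pandas 2.3.3 and numpy 2.4.6 and were tested on simulated peaks. No test was made, since the genes were chosen on these peaks, and 2 libraries against 2 cannot give an exact permutation p below 0.33. All 8 genes are named, along with each gene of 4 further lists that was bound in some group, with values for the 3 of each list with the lowest mean rank percent. The genes and lists were chosen with earlier results of these data known. The second WT pair served as control for the knockout, although the labels do not say which WT pair was prepared with it, and the first pair was the alternative. Of the 5 input samples, whose files were not analysed here, 1 has conflicting labels and was placed in no group.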

Additional observations from a re-analysis of the deposited data

How the results depend on the processing

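The number of genes bound in both libraries was recomputed with other windows, summits in place of overlaps, a stricter q-value, a peak in either library, and each replicate left out in turn. Of 66 values computed under alternatives, 60 stayed within 1.5 times the value reported and 6 did not. With every list cut to its 123 strongest peaks, 2 genes were bound at room temperature, 3 in the first WT pair, 3 in the TXNIP KO and 3 in the second WT libraries. With the first WT pair as control in place of the second, P4hb and Plod3 were bound in KO and not in that pair. The count was thus 2 genes, where the second pair, which bound both, gave 0. Of all protein-coding genes, 21% were bound in KO and 4.97% in the first WT pair, and the share that differed likewise was not computed. A run of 3 inverted units in place of a pair gave 0 promoter windows in place of 2. Leaving out a replicate gave 2 or 3 genes at 4 h and 15 to 17 regions, and left the counts of the other groups at 5 or 7. The 50000 bp window gave 8 genes in KO and second WT tissue, Fkbp10 included. Shares of all genes were computed neither for the cut lists nor for this window, so these counts have no background beside them. The planned motif search at summits was not run because no genome sequence was used here. No paired analysis was possible because presence, rank and fold come from no test, and whether libraries share animals is not stated. Unknown depth, unequal list lengths and 2 libraries a group limit every comparison, and a weak peak missing from a short list is not a measured absence.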
